A study of Sus scrofa with 12 samples.

Results

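The mitochondrial carriers of the SLC25 family, together with the mitochondrial pyruvate carrier, were examined in the liver of pigs that differed in residual feed intake (RFI). RFI is the feed a pig eats beyond what its growth and body size predict, so that low RFI stands for a high feed efficiency (FE). A gene was taken as a carrier when its symbol in the platform annotation began with SLC25A or was UCP1, UCP2, UCP3, MPC1, MPC2, BRP44 or BRP44L. By this rule 38 genes with 59 probe sets were found among the 13755 genes that the annotation names on the array. Each gene was represented by its probe set of highest mean over the 12 arrays. All 38 symbols were found in RefSeq, where BRP44L is listed under its current name MPC1, which is used here. UCP1, MPC2 and SLC25A47 had no probe set of that name in the annotation and were not analysed here.

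Liver RNA came from 12 crossbred pigs, the offspring of Large White × Landrace sows and Hylean Maxgro boars, sampled at day 140 after eating and raised on a common finisher diet offered ad libitum. By their labels, 6 pigs (3 males, 3 females) were of low RFI and the other 6 (3 males, 3 females) of high RFI, and each pig had its own porcine snowball array. The study describes the pigs as the most divergent siblings of the same sex within litters, but the labels state neither litters nor siblings, and RFI class was the only factor of the model. Values are log2 intensities after robust multichip average (RMA) normalization, and the brightness of a probe set is not a level that can be compared between genes. In bulk liver, fewer cells of a type and less RNA per cell cannot be told apart.

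Most carriers of this family span the inner mitochondrial membrane and exchange metabolites between the cytosol and the matrix. They let ADP enter and ATP leave, and bring in phosphate, acylcarnitines, cofactors and iron. They also move aspartate, ornithine, malate and citrate for the malate-aspartate shuttle, the urea cycle and lipid synthesis. The uncoupling proteins belong to the same family and dissipate the proton gradient. The pyruvate carrier is formed by MPC1 and MPC2, which are no SLC25 proteins but do the same kind of work for pyruvate at the same membrane.

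The arrays were alike in scale, with medians from 3.48 to 3.53 and pairwise array correlations over all probe sets from 0.976 to 0.985. The 8 hepatocyte markers were bright in all pigs, with mean log2 values from 10.25 to 14.04, and their summed level (log2 of the summed intensities) lay between 16.02 and 16.13 in low RFI pigs and between 16.03 and 16.08 in high RFI pigs. The summed level of 5 erythroid markers ranged from 10.24 to 11.69 and from 9.80 to 11.58, and that of 5 Kupffer cell markers from 11.38 to 11.79 and from 11.11 to 11.59, with CD163 as the only one of these 5 at an unadjusted p under 0.05 in limma (difference 0.68). GC-rich background probes (24 sets, with 17 to 24 G or C bases) averaged 6.55 ± 0.08 (SD, n = 6) in low RFI and 6.69 ± 0.11 (SD, n = 6) in high RFI pigs (exact permutation test, two-sided, p = 0.039). Their part in the results was not tested beyond a fit that holds this background as a covariate.

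None of the 38 carriers was called as different between the RFI classes in the fit without a filter on SD. The study, after its own filter on SD, lists a probe set of SLC25A13 and another that it assigns to SLC25A37 as altered at q under 0.30. A q-value, the expected share of false calls among the probe sets up to that point, was computed in limma over all 47845 probe sets without a filter on SD, and the smallest q-value of a carrier was 0.513 against a threshold of 0.30. On the whole array 15 probe sets (0.0314%) passed that threshold, 6 of them (0.0436% of named genes) as the probe set of a named gene, and 0 passed a Benjamini-Hochberg adjusted p under 0.05. At an unadjusted p under 0.05, 1 carrier had a higher value and 3 had a lower value in low RFI pigs, which is 10.5% of the 38 carriers beside 9.13% of all named genes with 1 probe set each. Higher values at this p made up 4.68% of the named genes and lower values 4.45%. Over all probe sets the share was 7.29%, with 3.79% higher and 3.51% lower. The 4 carriers were SLC25A33, SLC25A13, SLC25A37 and MPC1, and a share this near to the background says nothing particular about the family.

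Differences are given throughout as low RFI minus high RFI by the sample labels, and for the probe sets that the study itself lists, its text gives the opposite direction. For SLC25A13 the fold has the same size in both, 1.30, with the classes exchanged. This conflict was not resolved. The direction of every class difference given here, and its link to feed efficiency, therefore rests on the labels alone. The median difference over the 38 carriers was -0.03 on the log2 scale, beside -0.02 over all named genes, and 18 carriers had a positive and 20 a negative difference. The differences ran from -0.38 for SLC25A13 to 0.92 for SLC25A30. In 34 of the 38 genes the 95% interval of the difference lay within 1 log2 unit of 0 on both sides, so that a difference beyond 2-fold was outside the interval. In the others, SLC25A15, SLC25A25, SLC25A30 and SLC25A33, the interval was wider or lay higher. Of the 34, SLC25A31, SLC25A14 and SLC25A22 had means of 2.04, 2.92 and 3.01, below the array medians. MPC1 and SLC25A24 had means of 3.62 and 3.83, near those medians. Background limits what the arrays can show at such values, so these narrow intervals do not bound the difference in transcript. No carrier had classes that did not overlap, which 52 named genes (0.378%) did.

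**Figure D1:**
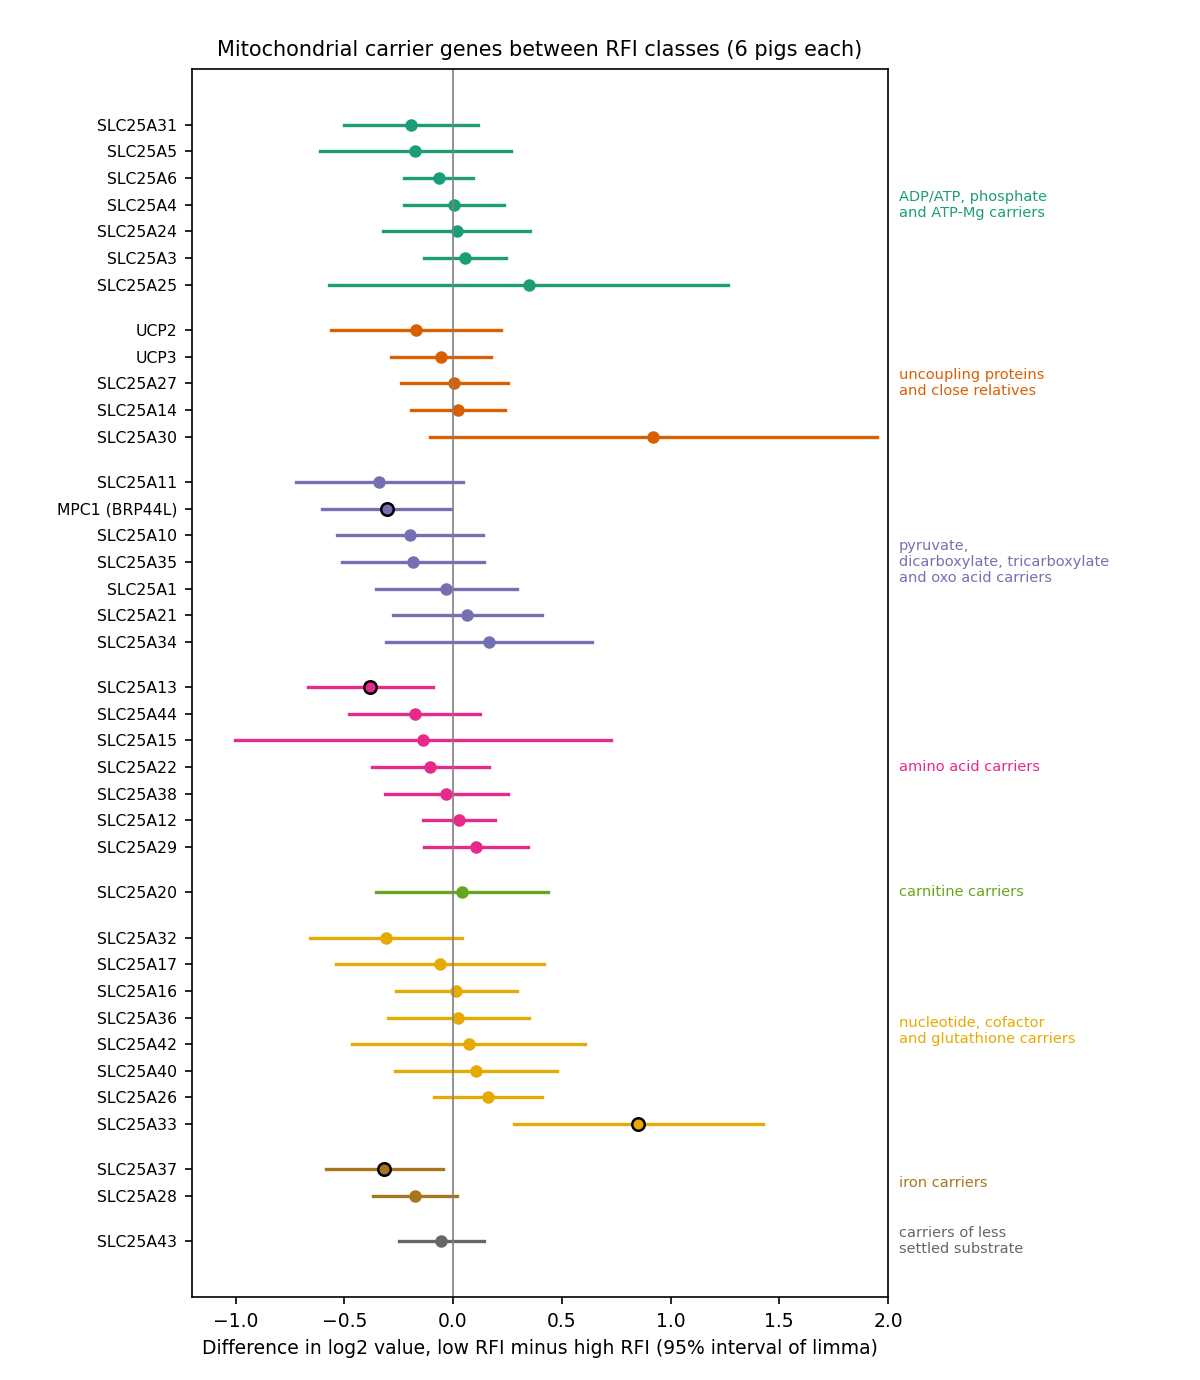
Difference in log2 value between low and high RFI pigs (x axis, log2 units) for each of the 38 carrier genes (y axis), grouped by substrate, with points for the limma estimate and bars for its 95% interval (6 pigs per class). Black rims mark the 4 genes with an unadjusted p under 0.05. Most intervals are short and include 0, while those of SLC25A30 and SLC25A25 are long.

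SLC25A33, which carries pyrimidine nucleotides into mitochondria, had the smallest p of the family. Its log2 values were 3.93, 3.49, 4.04, 3.25, 5.04 and 4.91 in the low RFI pigs P307, P308, P309, P310, P323 and P324. In the high RFI pigs P301, P302, P303, P304, P317 and P318 they were 3.03, 3.48, 3.35, 3.39, 3.18 and 3.11. The females P323 and P324 stood well above the next pig, P310 was within the range of the high RFI pigs, and P308 lay just above it. The means were 4.11 ± 0.73 (SD, n = 6) and 3.26 ± 0.18 (SD, n = 6), a difference of 0.85 (SE 0.27, 1.81-fold, q = 0.513 in limma, unadjusted p = 0.0064). The difference was 0.53 in males and 1.17 in females, and 0.42 with P323 and P324 left out, a setting chosen after their values were seen. These values lie near the median of the arrays, and the dimmer probe set of the gene, SNOWBALL_045736, differed by -0.16, so that the mean over both probe sets differed by 0.35.

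SLC25A13, the aspartate/glutamate carrier of liver (citrin), which serves the malate-aspartate shuttle and feeds aspartate to the urea cycle, had lower values in low RFI pigs. These were 8.15, 7.84, 7.86, 8.37, 7.78 and 7.75 in P307, P308, P309, P310, P323 and P324. In the high RFI pigs, in the order P301, P302, P303, P304, P317 and P318, the values were 8.51, 8.57, 8.15, 8.36, 8.47 and 7.96. All low RFI pigs except P310 lay below the mean of the high RFI pigs, and the classes overlapped through P307 and P310 on one side and P303, P304 and P318 on the other. The means were 7.96 ± 0.25 and 8.34 ± 0.23 (SD, n = 6 per class), a difference of -0.38 (SE 0.13, q = 0.534 in limma, unadjusted p = 0.0136), with -0.46 in males and -0.30 in females. With a filter on SD rebuilt from the study's description, which is not identical to the one the study applied and by which 952 of 35844 probe sets (2.66%) were called, the same probe set, SNOWBALL_012537, passed the threshold with q = 0.266, the only one of the 24 carriers left in that test to do so.

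SLC25A37, mitoferrin-1, imports iron for heme and iron-sulfur clusters. In the low RFI pigs it had 6.28, 6.11, 5.94, 6.04, 6.05 and 5.86 in the order P307, P308, P309, P310, P323 and P324, and in the high RFI pigs 6.47, 6.61, 6.50, 6.44, 6.33 and 5.84 in the order P301, P302, P303, P304, P317 and P318. The high RFI pigs except P318 lay above every low RFI pig, and P318 lay below them all. The difference was -0.32 (SE 0.13, q = 0.555 in limma, unadjusted p = 0.0242), with -0.41 in males and -0.22 in females, and without P318 it was -0.42 with a q-value of 0.405. The dimmer probe set SNOWBALL_029657 differed by -0.22. The study assigns a further probe set to this gene, SNOWBALL_047546, which the platform annotation leaves unnamed, so it was no member by the rule. It had 5.50 to 6.12 in low RFI pigs and 6.13 to 6.33 in high RFI pigs, without overlap, a difference of -0.39 (SE 0.10, q = 0.443 without the filter on SD and 0.184 with it). SLC25A28, mitoferrin-2, which supplies iron outside the erythroid lineage, had medians of 7.03 and 7.17 with a range from 6.67 to 7.09 in low RFI and from 6.99 to 7.23 in high RFI pigs. Its difference was -0.17 (q = 0.624 in limma). The 5 erythroid markers, among them HBB and ALAS2, had 0 members at an unadjusted p under 0.05.

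MPC1, a subunit of the pyruvate carrier that brings pyruvate to the citric acid cycle and to gluconeogenesis, had values of 3.25, 3.64, 3.55, 3.51, 3.41 and 3.45 in the low RFI pigs P307, P308, P309, P310, P323 and P324. In the high RFI pigs P301, P302, P303, P304, P317 and P318 it had 3.51, 3.69, 3.44, 4.30, 3.68 and 4.02. The high RFI females P304 and P318 were the highest of all pigs, while the males of the classes overlapped. The difference was -0.30 (SE 0.14, q = 0.594 in limma, unadjusted p = 0.0446), with -0.07 in males and -0.54 in females. Without P304 it was -0.20 and without P318 -0.25. The values lie near the array median, and the gene has a single probe set.

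**Figure D2:**
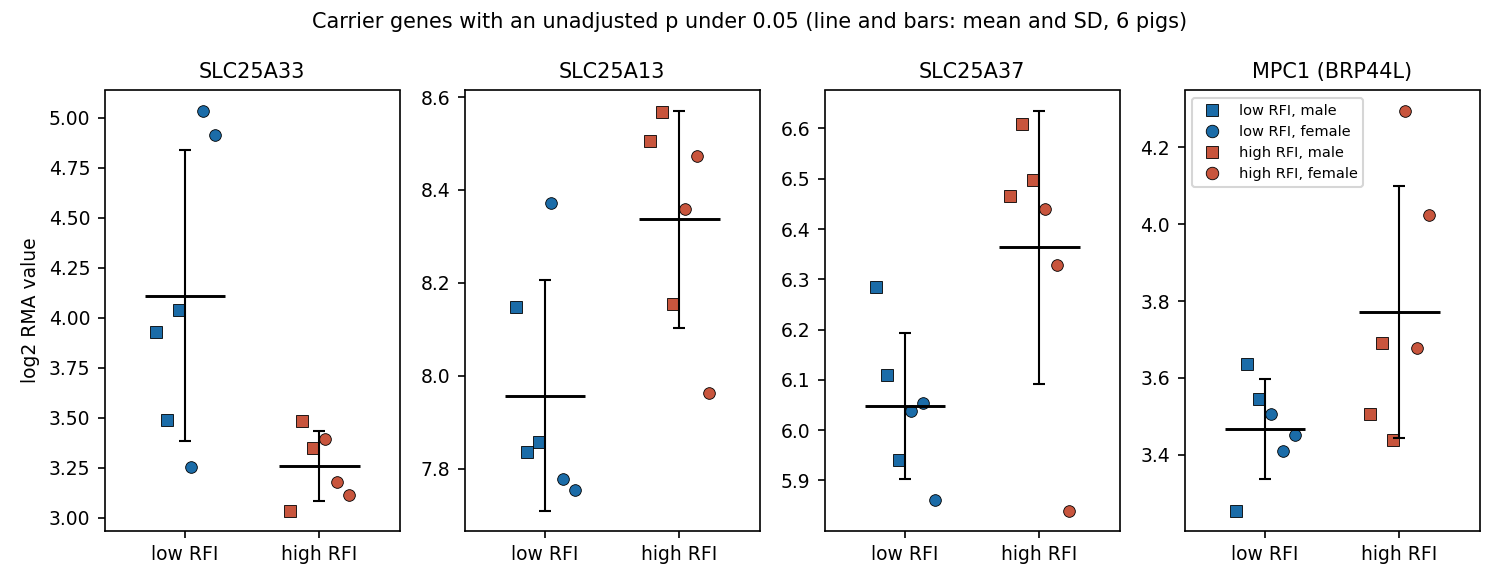
Log2 RMA values (y axis) of SLC25A33, SLC25A13, SLC25A37 and MPC1 in each pig of the low and high RFI class (x axis), squares for males and circles for females, with lines and bars for the mean and SD of 6 pigs. P323 and P324 stand at 5.04 and 4.91 in SLC25A33, and P318 stands at 5.84 in SLC25A37, apart from the other high RFI pigs.

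The other carriers of dicarboxylates, tricarboxylates and oxo acids had differences from -0.34 to 0.17, with a median of -0.18 over the group of 7 genes that includes MPC1. SLC25A11, the oxoglutarate carrier of the malate-aspartate shuttle, had the lowest. It ranged from 7.08 to 7.40 with a median of 7.31 in low RFI pigs and from 7.08 to 8.28 with a median of 7.56 in high RFI pigs, so that the spread lay in the high RFI class, and the difference of -0.34 had q = 0.630 in limma. SLC25A10, the dicarboxylate carrier that exchanges malate and phosphate, ranged from 7.91 to 8.70 (median 8.25) and from 8.20 to 8.81 (median 8.43), a difference of -0.20 (q = 0.710 in limma). SLC25A1, the citrate carrier that exports citrate for fatty acid and sterol synthesis, ranged from 8.57 to 9.47 (median 8.81) and from 8.56 to 9.22 (median 8.92), a difference of -0.03 (95% interval -0.35 to 0.29). Its far dimmer probe set, SNOWBALL_024157, with a mean of 2.49, differed by -0.40. The classes overlapped in each of these genes. SLC25A35 differed by -0.18, SLC25A21, which carries oxoadipate, by 0.07, and SLC25A34 by 0.17.

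In the 7 carriers of amino acids, the median difference was -0.10. SLC25A15, the ornithine carrier that links the cytosolic and mitochondrial steps of the urea cycle, varied widely between pigs of both classes. It had 7.30, 7.59, 7.08, 7.10, 8.63 and 8.98 in P307, P308, P309, P310, P323 and P324, and 6.51, 7.79, 8.54, 7.86, 7.94 and 8.88 in P301, P302, P303, P304, P317 and P318. The highest pigs, P324 and P318, belonged to different classes, and the difference of -0.14 had a 95% interval from -1.004 to 0.73. SLC25A12, the other aspartate/glutamate carrier, known from muscle and brain, was among the steadiest genes of the array, with values from 4.66 to 4.90, a range that includes both classes, and a difference of 0.03. SLC25A44, a carrier of branched-chain amino acids, had a negative difference through all 3 of its probe sets, -0.18, -0.22 and -0.34, the last with an unadjusted p of 0.0392 and q = 0.589 in limma. SLC25A22, which carries glutamate, differed by -0.10, SLC25A38, which carries glycine for heme synthesis, by -0.03, and SLC25A29, a carrier of basic amino acids, by 0.11. The other probe sets of SLC25A29, SNOWBALL_010199 and SNOWBALL_027914, differed by -0.20 and 0.06, so its direction depended on the probe set.

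The carriers of adenine nucleotides and phosphate, on which oxidative phosphorylation depends, had a median difference of 0.00 over 7 genes. SLC25A3, the phosphate carrier, ranged from 9.62 to 9.99 (median 9.76) in low RFI pigs and from 9.62 to 9.80 (median 9.74) in high RFI pigs, a difference of 0.05 (95% interval -0.14 to 0.24). SLC25A4, an ADP/ATP carrier, ranged from 9.19 to 9.70 (median 9.39) and from 9.15 to 9.59 (median 9.46), a difference of 0.00 (95% interval -0.23 to 0.23). SLC25A6, also an ADP/ATP carrier, had an SD of 0.08 over the 12 pigs, the smallest of the family, and differed by -0.07. The classes overlapped closely in these genes. SLC25A5, the ADP/ATP carrier of proliferating and epithelial cells, ranged from 7.48 to 8.55 (median 8.001) and from 7.72 to 8.87 (median 7.96), with a difference of -0.17 (95% interval -0.61 to 0.27). The germline carrier SLC25A31 differed by -0.19 at values near 2, and SLC25A24, which carries ATP-Mg in exchange for phosphate, by 0.02.

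SLC25A20, the carnitine-acylcarnitine carrier that brings fatty acids to beta-oxidation, ranged from 7.12 to 8.34 (median 7.32) in low RFI pigs and from 7.03 to 7.66 (median 7.47) in high RFI pigs. P323 was the highest pig at 8.34, the next low RFI pig stood at 7.46, and the difference was 0.04 (95% interval -0.35 to 0.44). UCP2, an uncoupling protein that liver expresses weakly outside its macrophages, ranged from 4.52 to 5.59 (median 5.37) and from 5.17 to 5.91 (median 5.33), a difference of -0.17 (q = 0.765 in limma). UCP3, known from muscle, differed by -0.05 and SLC25A14 by 0.02. SLC25A27, known from brain, ranged from 8.62 to 9.17 (median 8.85) and from 8.71 to 9.10 (median 8.82), a difference of 0.01. Its other probe set, SNOWBALL_028480, was far dimmer, with a mean of 2.17 and a difference of 0.13. None of these was separated between the classes.

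Among the other carriers of cofactors and nucleotides, SLC25A32, which carries folate or FAD, ranged from 5.83 to 6.55 (median 5.97) in low RFI and from 5.86 to 6.66 (median 6.53) in high RFI pigs. Its difference was -0.31 in males and -0.31 in females, with q = 0.629 in limma. SLC25A26, the carrier of S-adenosylmethionine, differed by 0.16 and by 0.14 through its 2 probe sets. The coenzyme A carriers SLC25A42 and SLC25A16 differed by 0.07 and 0.02, the peroxisomal cofactor carrier SLC25A17 by -0.06, the glutathione carrier SLC25A40 by 0.11, the pyrimidine nucleotide carrier SLC25A36 by 0.02 and SLC25A43, whose substrate is less settled, by -0.05. Of the 18 carriers with more than 1 probe set, 12 had differences of the same sign through all of them.

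The carriers varied more between pigs than named genes in general, with a median SD over the 12 pigs of 0.28 beside 0.23. The 4 carriers SLC25A30, SLC25A25, SLC25A15 and SLC25A33, had an SD above that of 98% of named genes, and 4, SLC25A3, SLC25A6, SLC25A12 and SLC25A43, had an SD among the lowest 10%. The rebuilt filter on SD left out 14 of the 38 carriers (36.8%), where 78.0% of named genes were kept and 22.0% left out, 10 of the carriers for a high SD within a class and 4 for a low SD over all pigs. SLC25A33, SLC25A30, SLC25A25 and SLC25A15 were among the 10.

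SLC25A30, a relative of the uncoupling proteins first known from kidney, and SLC25A25, a calcium-regulated ATP-Mg/phosphate carrier, varied together. SLC25A30 had 7.04, 7.46, 8.99, 8.35, 10.18 and 9.48 in the low RFI pigs P307, P308, P309, P310, P323 and P324, and 7.64, 7.52, 7.33, 6.81, 7.80 and 8.86 in the high RFI pigs P301, P302, P303, P304, P317 and P318. SLC25A25 had 5.35, 4.91, 7.27, 5.88, 7.32 and 7.56 in the same low RFI pigs and 5.39, 6.14, 5.56, 6.39, 6.25 and 6.48 in the same high RFI pigs. The low RFI pigs P309, P323 and P324 were the 3 highest in both genes, and also in SLC25A33, while P307 and P308 of the same class were among the lowest in SLC25A25. The 3 pigs include a male and belong to the class with the wider spread.

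The difference between the classes was 0.92 for SLC25A30 (SE 0.48, 95% interval -0.11 to 1.95, q = 0.626 in limma) and 0.35 for SLC25A25 (SE 0.43, 95% interval -0.57 to 1.27, q = 0.783 in limma). With P323 and P324 left out, a setting chosen after seeing the data, they were 0.30 and -0.18. The second probe set of SLC25A30 differed by 0.57 and that of SLC25A25 by 0.17. Across the 12 pigs, Pearson's r between SLC25A30 and SLC25A25 was 0.78 (permutation test, two-sided, p = 0.00299, 0.00897 after Benjamini-Hochberg adjustment over 3 pairs) and Spearman's rho 0.72 (permutation p = 0.0108, adjusted p = 0.0325). Without P323 and P324, the pigs farthest from the median of SLC25A30, r was 0.59. It was 0.91 within low RFI and 0.27 within high RFI pigs, a contrast that was not tested, and 0.86 within males and 0.71 within females. SLC25A30 and SLC25A25 were picked for their large SD in these same pigs, and no share over other gene pairs is given beside their r. SLC25A15, next to them in SD, had r = 0.43 with SLC25A30 (permutation p = 0.158, adjusted p = 0.158) and r = 0.49 with SLC25A25 (permutation p = 0.112, adjusted p = 0.158), with rho of 0.29 (permutation p = 0.353) and 0.57 (permutation p = 0.0595), and r without the 2 farthest pigs of 0.03 and 0.35.

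**Figure D3:**
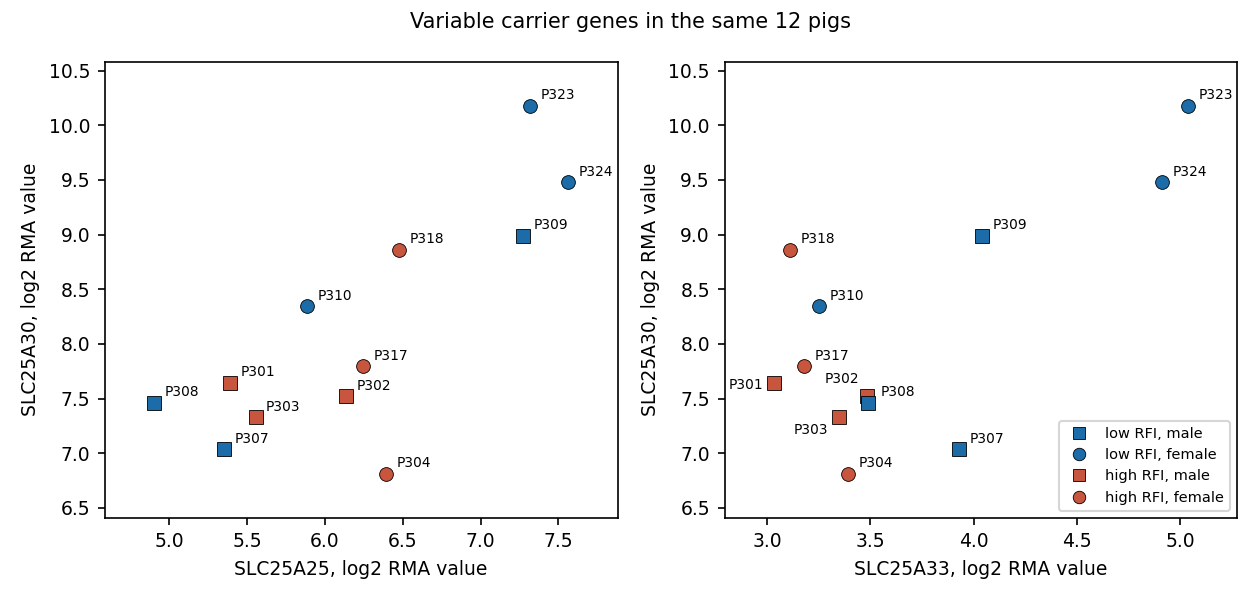
Log2 RMA values of SLC25A30 (y axes) against SLC25A25 (left x axis) and SLC25A33 (right x axis) in 12 pigs, coloured by RFI class, squares for males and circles for females. The low RFI pigs P309, P323 and P324 have the 3 highest values of all 3 genes.

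**Figure D4:**
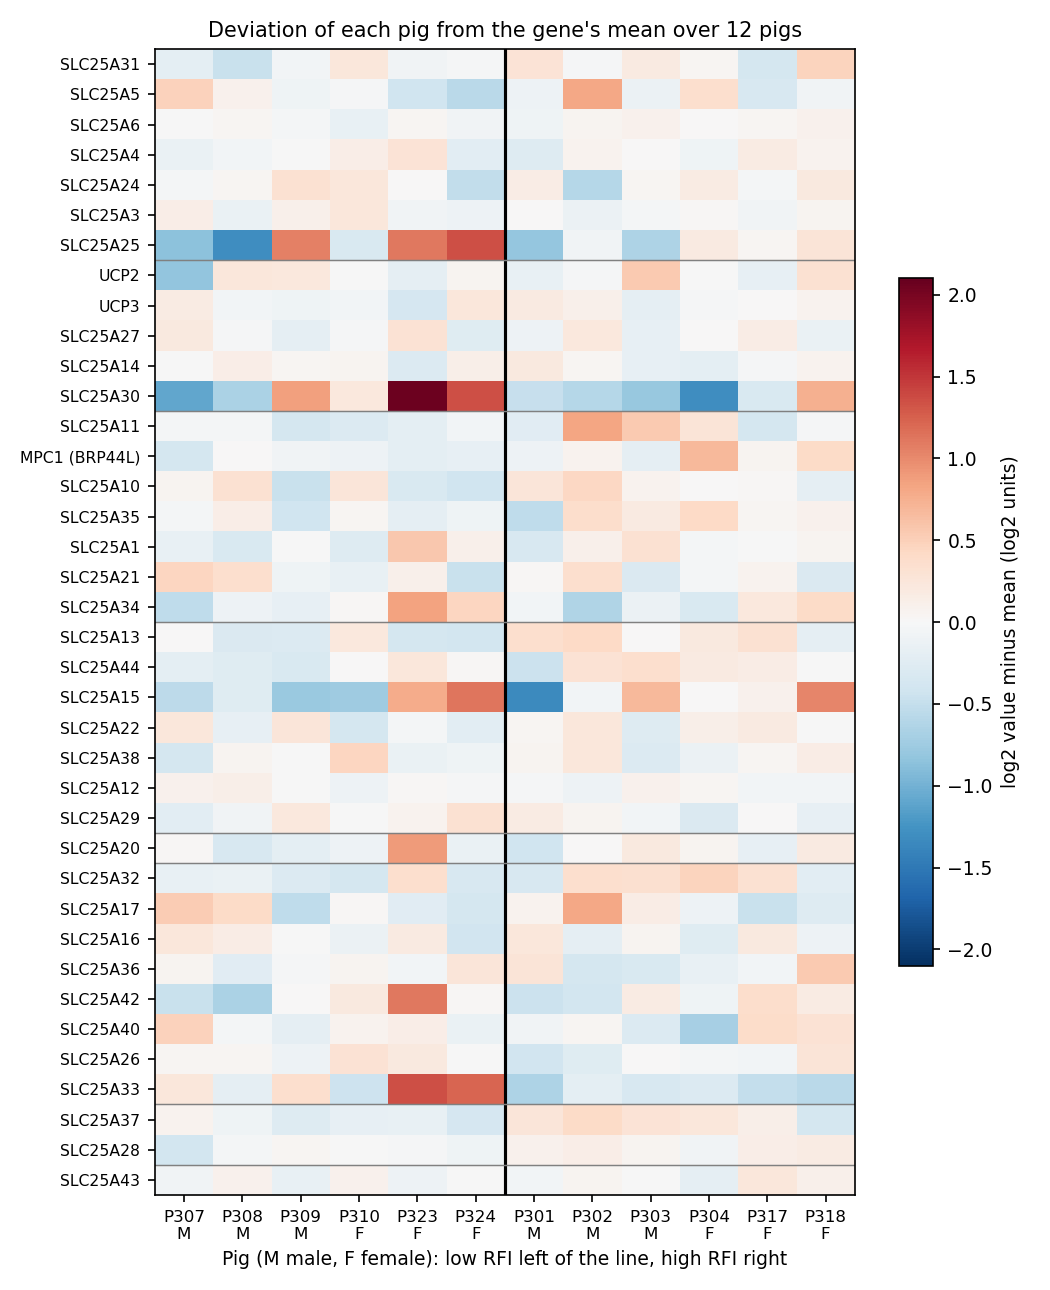
Deviation of each pig (columns, low RFI left of the line and high RFI right of it) from the mean over 12 pigs of each carrier gene (rows, in substrate groups), in log2 units by colour. The strongest colours lie in the rows of SLC25A25, SLC25A30, SLC25A15 and SLC25A33, and most other rows are pale in both classes.

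Between the sexes, with RFI class as a covariate, none of the carriers passed q under 0.30, beside 19 of all probe sets (0.0397%). At an unadjusted p under 0.05, 4 carriers had higher values in females and 1 had lower values, which is 13.2% beside 7.08% of named genes. These genes were chosen for description after their values were seen. SLC25A34, one of the group of dicarboxylate and oxo acid carriers, averaged 6.58 ± 0.25 (SD, n = 6) in males and 7.12 ± 0.40 (SD, n = 6) in females, a difference of 0.54 (q = 0.670 in limma). SLC25A42, the coenzyme A carrier, averaged 5.77 ± 0.32 and 6.36 ± 0.42, a difference of 0.59 (q = 0.670 in limma), and SLC25A25 5.77 ± 0.84 and 6.65 ± 0.65, a difference of 0.88 (q = 0.746 in limma). SLC25A26 differed by 0.22, though by -0.09 through its dimmer probe set, and SLC25A17, a carrier of the peroxisome, had a difference of -0.48, female minus male. The sexes overlapped in each of these genes.

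**Figure D5:**
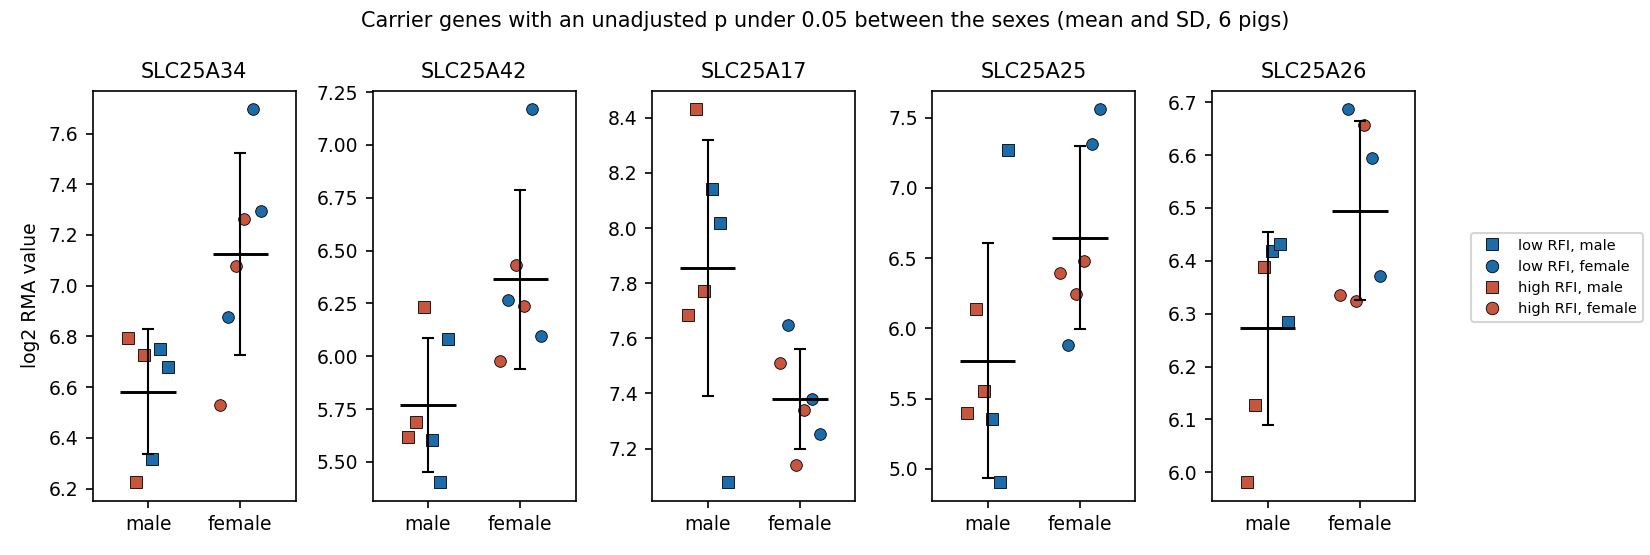
Log2 RMA values (y axis) of the 5 carriers with an unadjusted p under 0.05 between the sexes, in 6 males and 6 females (x axis), coloured by RFI class, with lines and bars for the mean and SD. Females average 7.12 in SLC25A34 and males 6.58, and the sexes overlap in each gene.

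The interaction of sex and RFI class had 0 carriers at q under 0.30 (0 of all probe sets, 0%) and 0 at an unadjusted p under 0.05, beside 4.25% of named genes, with 0.0635 as the smallest p. It belonged to MPC1. The difference between the RFI classes had the same sign in males and in females in 21 of the 38 carriers, and no such count over all named genes is given beside it. SLC25A33, SLC25A13, SLC25A37 and MPC1 were among them. Their p came from these same males and females, so an equal sign was likely in advance and is no separate support.

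Enzymes and regulators that work with the carriers were compared in the same fit. Of 64 genes on 7 lists, 54 were named on the array, and 0 of them passed q under 0.30 in limma. At an unadjusted p under 0.05, 2 were higher and 2 lower in low RFI pigs, 7.41% beside 9.13% of named genes. PPARGC1A, the coactivator PGC-1alpha that drives mitochondrial and gluconeogenic genes, ranged from 5.74 to 6.99 (median 6.20) in low RFI and from 4.62 to 6.00 (median 5.39) in high RFI pigs, a difference of 0.89 (SE 0.24, q = 0.443 in limma). The classes overlapped only between 5.74 and 6.00. It was the only one of 5 transcriptional regulators at this p. The dimmest partner genes were PDHB, TIMM44, PPARGC1B, ASS1 and ISCU, with means from 1.48 (PDHB) to 2.44 (ISCU), below the array medians. Background limits what the arrays can show at such values, so their small differences do not bound the difference in transcript. These genes were kept in the counts and in the medians of their lists.

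In the urea cycle list of 5 genes, ARG1, the arginase that releases the ornithine carried by SLC25A15, ranged from 7.86 to 9.85 (median 9.09) in low RFI and from 8.06 to 8.48 (median 8.25) in high RFI pigs, a difference of 0.64 (q = 0.586 in limma). NAGS, which makes the activator of the first step of the cycle, ranged from 6.12 to 7.76 (median 7.61) and from 7.64 to 8.08 (median 7.94), a difference of -0.58 (q = 0.563 in limma). Of the 6 shuttle enzymes, GOT2, the mitochondrial aspartate aminotransferase that supplies the aspartate exported by SLC25A13, ranged from 10.42 to 10.88 (median 10.76) in low RFI and from 10.65 to 11.05 (median 10.97) in high RFI pigs. Its difference was -0.23 (q = 0.595 in limma). The other shuttle enzymes differed by -0.18 (MDH2), -0.07 (GPD2, at a dim mean of 3.03), -0.002 (MDH1), 0.14 (GOT1) and 0.17 (GPD1). The 8 genes of citrate and pyruvate handling, 8 of the carnitine system, 7 of iron-sulfur clusters and 15 markers of mitochondrial abundance and import had 0 members at this p. Their median differences were -0.05, 0.14, 0.05 and -0.06.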

How the data were processed

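Liver RNA from 12 pigs was hybridized to Affymetrix snowball arrays, 1 array per pig. Scanning was by GCOS 1.1.1, and the authors deposited log2 values after RMA, which corrects the background, makes the distributions of the arrays equal and gives 1 value per probe set. RMA gives no detection call, so dim probe sets were kept. For the RNA extraction and target preparation the study's text and the labels name different kits. Groups were taken from the sample labels. RFI class was compared in limma 3.58.1 (R 4.3.3) over all 47845 probe sets as the only factor, with moderated variances, Storey's q-value with lambda from 0.05 to 0.90, and calls at q under 0.30. The fit was tested on simulated data with independent probe sets and changes larger, relative to the SD, than those of the carriers. That test does not bear on differences of the size seen here. Sex was tested in a fit that also held RFI class, and the interaction of both in a further fit. The number of pigs limits the precision, with a median SE of 0.15 over the carriers. The carriers described with values are those with an unadjusted p under 0.05, the 5 of highest mean, the 3 of largest SD and a list of carriers known from liver, while values of others were added after they were seen. Correlations were tested by 1e+05 permutations. The carriers, the gene lists and these rules were chosen with earlier results of these data known. A filter on SD, leaving out the lowest 10% over all pigs and the highest 10% within a class, was rebuilt from the study's description and is not identical to it. Alternatives changed the filter, threshold, covariates, weighting, scaling, probe set or pigs. Sequences and genome positions are not used here.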

Additional observations from a re-analysis of the deposited data

Results flagged for a closer look

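In 2 of 30 classes tested, those of 15 carriers in each RFI class, a pig stood far from its class by Dixon's criterion for its gap to the next pig, and chance alone flags about 1 in 20. In SLC25A37, the high RFI pig P318 had the lowest value at 5.84, with the next pig of the class at 6.33. In SLC25A20, the low RFI pig P323 had the highest value at 8.34, with the next pig at 7.46.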

How the results depend on the processing

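The labels state no pairs, but the number of each low RFI pig is that of a high RFI pig of the same sex plus 6. After seeing the data, these 6 pairs were tried as a block. Correlations within pairs of deviations from the class means, over all probe sets, ran from 0.03 to 0.20, above 0.1 in 2 of 6 pairs, and 10 of 12 pigs correlated best with their own pair among the pigs of the other class, a hint from the data and not the design. With this replicate block 137 probe sets, 0 carriers and 1 partner gene were called, and 5 carriers (SLC25A33, SLC25A13, SLC25A37, MPC1 and SLC25A30) and 7 partner genes had an unadjusted p under 0.05. Of the 38 carriers, 0 were called under all alternatives except the rebuilt filter on SD, which called 1, SLC25A13. It called 952 probe sets of all (15 without it), and 2 partner genes had an unadjusted p under 0.05, CPT2 and CS, neither among the 4 without it, of which the filter removed PPARGC1A, NAGS and ARG1. The filter on dim probe sets called 225 probe sets and 1 partner gene, and sex as a covariate called 25 probe sets. The number of probe sets called was 0 with a Benjamini-Hochberg p under 0.05, 0 with the GC-rich background as a covariate, 2 in males only, 0 in females only and 2 without P323 and P324, where 2 carriers, SLC25A33 and SLC25A32, had an unadjusted p under 0.05 and SLC25A13 (-0.28), SLC25A37 (-0.27) and MPC1 (-0.29) did not. With the GC-rich background as a covariate, the median difference of the carriers was -0.092, that of SLC25A13 -0.52, and those of SLC25A4, SLC25A15, SLC25A20, SLC25A27 and UCP2, which were not called, had the other sign. In that fit MPC1 no longer had an unadjusted p under 0.05, while SLC25A33, SLC25A13, SLC25A37 and SLC25A32 did. Through the probe set of highest SD, 2 partner genes had an unadjusted p under 0.05. Leaving out 1 pig at a time gave 1 to 1345 probe sets called, the most without P317, 0 carriers called, 2 to 8 carriers at an unadjusted p under 0.05 (8 without P301, 2 without P302 or P324), 0 to 1 partner genes called and 3 to 11 at an unadjusted p under 0.05, 11 without P317, and a median between -0.05 and -0.01. SLC25A33 and SLC25A13 stayed under this p in all 12 such fits, SLC25A37 in 9 (not without P302, P303 or P324) and MPC1 in 4 (not without P302, P304, P307, P309, P310, P318, P323 or P324). The causes were not tested. MPC1 and SLC25A33 lie near the array median, where background limits what the arrays can show.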
